A study of Homo sapiens with 8 samples.

Results

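The genes of the vascular endothelial growth factor (VEGF) system were described in hCMEC/D3, an immortalised cell line from human brain microvessel endothelium that serves to model the blood-brain barrier in culture. The 9 genes were taken by symbol from the 23346 genes of the deposited table: 3 receptors (KDR, FLT1, FLT4), 2 neuropilins (NRP1, NRP2) and 4 ligands (VEGFA, VEGFB, VEGFC, PGF). Polyadenylated RNA from 8 replicates of the line was sequenced. All 8 formed 1 group, for which the labels name no treatment or genetic change, so there was no comparison between conditions. The line was immortalised with telomerase and a viral large T antigen, and the labels do not say whether the replicates were separate cultures, so every spread and p-value below measures only the variation between these samples, which may be technical.

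VEGF ligands are secreted dimers that bind receptor tyrosine kinases on endothelial cells. KDR carries most of the mitogenic and permeability signal of VEGFA, FLT1 binds VEGFA, VEGFB and PGF and in part acts as a decoy, and FLT4 is the receptor for VEGFC and is best known from lymphatic vessels. Neuropilins are co-receptors without a kinase domain that also bind class 3 semaphorins. In the brain, VEGFA loosens the endothelial barrier.

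Library totals ranged from 69388544 to 90205244 counts, and none of the 186768 counts was odd. The libraries differed along transcript length. The length slope of a library, which is the change of its log2 level relative to the gene means per doubling of transcript length, was between 0.09 and 0.15 in replicates 1, 3, 4, 5 and 6. It was -0.11 in replicate 7, -0.23 in replicate 2 and -0.34 in replicate 8. A positive slope means relatively more counts on long transcripts. The labels give no batch, so this gradient and any difference between cultures cannot be told apart. The label was checked against markers: 8 of 8 endothelial markers were detected, with a summed level of 1596 to 3270 CPM (counts scaled to library size) per library, and 0 of 5 lymphatic markers (PROX1, LYVE1, PDPN, CCL21, RELN), with a sum of 0.213 to 0.688 CPM. In the other marker lists, 4 of 6 mural, 1 of 4 monocyte and microglia, 1 of 4 epithelial and 1 of 6 neuron and astrocyte genes were detected. Their summed levels were 45.4 to 70.4, 1.87 to 2.63, 3.94 to 5.28 and 2.96 to 6.40 CPM, and the astrocyte gene AQP4 had no count in any library. The highest gene of each list was CDH5 (649 ± 152 CPM, SD, n = 8), RELN (0.396 ± 0.199), CSPG4 (32.9 ± 8.97), CD14 (1.31 ± 0.211), KRT19 (2.61 ± 0.718) and SYT1 (4.17 ± 1.29), in the same order of lists.

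The windows upstream of 4 members are shown because KDR and FLT1 varied together across libraries on the CPM scale, whereas VEGFB and PGF varied in the opposite direction. That pattern depended on the scale, as given below, and a link between it and these windows was not tested. Each window holds the 250 bases before the RefSeq start (GRCh38.p14), 5′ to 3′. Capitals mark matches, on either strand, to the GC box GGGCGG, the cyclic AMP response element TGACGTCA, the ETS site CGGAAG, the hypoxia response cores ACGTG and GCGTG, and the TATA box TATAAA, and neighbouring matches can overlap.
KDR, chr4:55125596-55125845, minus strand: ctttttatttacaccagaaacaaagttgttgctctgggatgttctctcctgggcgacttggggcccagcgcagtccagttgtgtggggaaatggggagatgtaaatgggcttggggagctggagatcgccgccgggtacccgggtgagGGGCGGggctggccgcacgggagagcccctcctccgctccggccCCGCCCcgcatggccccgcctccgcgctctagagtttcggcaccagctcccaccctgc
FLT1, chr13:28495129-28495378, minus strand: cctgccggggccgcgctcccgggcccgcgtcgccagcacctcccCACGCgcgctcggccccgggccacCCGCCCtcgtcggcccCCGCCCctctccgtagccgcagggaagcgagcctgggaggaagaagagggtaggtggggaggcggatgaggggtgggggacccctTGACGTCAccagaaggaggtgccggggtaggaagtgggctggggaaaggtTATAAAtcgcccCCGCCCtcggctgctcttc
VEGFB, chr11:64234334-64234583, plus strand: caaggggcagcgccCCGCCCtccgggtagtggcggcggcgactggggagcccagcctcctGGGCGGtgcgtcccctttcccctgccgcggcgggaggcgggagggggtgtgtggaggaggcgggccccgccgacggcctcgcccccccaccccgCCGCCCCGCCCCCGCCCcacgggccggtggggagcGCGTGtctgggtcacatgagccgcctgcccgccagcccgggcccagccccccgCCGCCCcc
PGF, chr14:74955765-74956014, minus strand: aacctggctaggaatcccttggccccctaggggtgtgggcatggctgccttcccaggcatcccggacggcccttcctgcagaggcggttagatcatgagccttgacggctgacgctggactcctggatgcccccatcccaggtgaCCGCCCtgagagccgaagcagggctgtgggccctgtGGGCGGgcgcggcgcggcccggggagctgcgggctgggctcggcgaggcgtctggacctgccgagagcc

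All 4 windows were rich in G and C, at 65.2% for KDR, 73.2% for FLT1, 82.8% for VEGFB and 70.8% for PGF, against a median of 58.0% over 35116 RefSeq windows. GC boxes numbered 2 in KDR, 3 in FLT1, 6 in VEGFB and 2 in PGF, and 42.6% of all windows held at least 1. The FLT1 window was the only one of the 4 with the cyclic AMP response element, which 1.65% of all windows held, and with the TATA box, which 10.7% held. A hypoxia response core was found once in FLT1 and once in VEGFB, and 43.2% of all windows held one. RefSeq gives PGF another start, whose window overlaps the one shown and had 80.0% GC, 3 GC boxes and 1 hypoxia response core. The letters CGGAAG, held by 16.5% of all windows, were in none of the 4. Other forms of the ETS site were not searched, so their absence is not shown. These matches describe the letters in the windows and not binding. The RefSeq table matched 6 of the 9 members: KDR, FLT1, NRP2, VEGFB, VEGFC and PGF.

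All 9 members were detected, that is, they reached at least 1 CPM in every library, against 51.3% of all genes in the table. No other gene in the table overlapped any of them. Because long transcripts collect more counts, levels of different genes are compared as RPKM, the CPM per kilobase of the canonical GENCODE transcript. PGF ranked highest and FLT4 lowest on that scale. With all exons of a gene merged as its length the ends of the order changed: KDR (26.0 RPKM) came before PGF (24.9), with PGF over KDR at a log2 ratio of -0.08 ± 0.79 (SD, n = 8; adjusted exact permutation p = 0.827), and NRP2 (0.520) came after FLT4 (0.557). On the canonical transcript, PGF stood above 92.5% of the detected genes that had a length, whereas NRP2 stood above 7.42% and FLT4 above 5.44%.

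**Figure D1:**
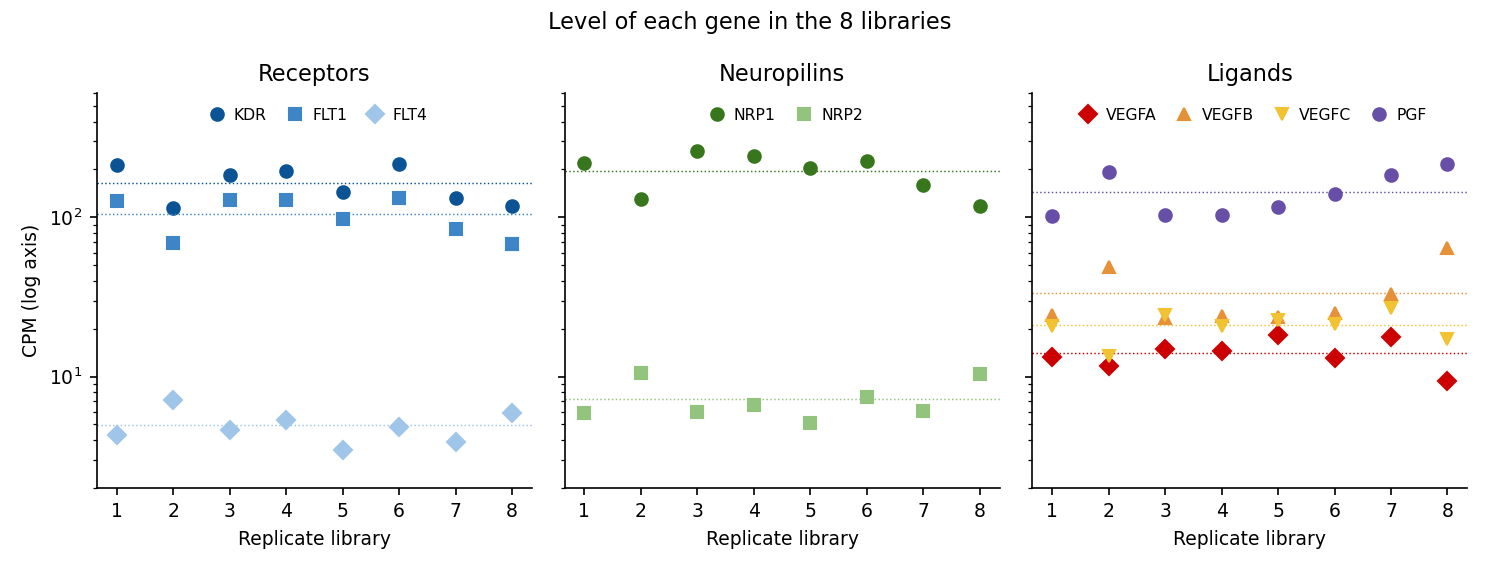
CPM of each gene (log axis) in replicate libraries 1 to 8, in panels for receptors, neuropilins and ligands, with dotted lines at the means. KDR, FLT1 and NRP1 have their lowest values in replicates 2, 7 and 8, where VEGFB and PGF have their highest, and NRP2 and FLT4 are highest in replicates 2 and 8.

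Among the receptors, KDR (ENSG00000128052, GRCh37 chromosome 4, 55944426 to 55991762, minus strand, 30 exons) had 114 CPM at the lowest, 165 at the median and 218 at the highest. Replicates 1 to 8 had 213, 114, 186, 196, 144, 218, 133 and 118 CPM. Replicates 2, 7 and 8 were the 3 lowest libraries. In RPKM its level was 28.3 ± 7.30 (SD, n = 8).

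FLT1 (ENSG00000102755, chromosome 13, 28874483 to 29069265, minus strand, 30 exons) had 126, 69.4, 129, 129, 97.4, 133, 84.1 and 68.2 CPM in replicates 1 to 8. The order of libraries was nearly that of KDR, with replicates 8, 2 and 7 lowest and replicate 6 highest. Its RPKM was 14.7 ± 3.93 (SD, n = 8). Gene counts do not separate the full-length receptor from the shorter soluble forms that FLT1 also encodes. Per length, KDR exceeded FLT1 by a log2 ratio of 0.95 ± 0.10, with single libraries between 0.81 and 1.08.

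FLT4 (ENSG00000037280, chromosome 5, 180028506 to 180076624, minus strand, 30 exons) was far lower. Replicates 1 to 8 had 4.28, 7.16, 4.61, 5.31, 3.47, 4.84, 3.87 and 5.91 CPM, which rest on 268 to 646 counts per library. Unlike the other receptors it was highest in replicates 2 and 8. Its RPKM was 0.846 ± 0.203 (SD, n = 8), and KDR lay 32.6-fold above it (log2 ratio 5.03 ± 0.58).

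Of the neuropilins, NRP1 (ENSG00000099250, chromosome 10, 33466419 to 33623833, minus strand, 17 exons) had 219, 130, 261, 242, 205, 225, 160 and 118 CPM in replicates 1 to 8. Like KDR and FLT1 it was lowest in replicates 8, 2 and 7. Its RPKM was 34.6 ± 9.36 (SD, n = 8).

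NRP2 (ENSG00000118257, chromosome 2, 206547224 to 206662857, plus strand, 17 exons), the neuropilin that also binds VEGFC, had 5.87, 10.6, 5.95, 6.58, 5.08, 7.42, 6.04 and 10.3 CPM. Replicates 2 and 8 stood above the other 6 libraries, which lay between 5.08 and 7.42 CPM. Its RPKM was 1.09 ± 0.316 (SD, n = 8), and NRP1 lay 31.2-fold above it (log2 ratio 4.97 ± 0.76).

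The ligands were led by PGF (ENSG00000119630, chromosome 14, 75408533 to 75422467, minus strand, 7 exons), placental growth factor, which binds FLT1 and not KDR. It had 102, 192, 103, 104, 117, 140, 185 and 215 CPM in replicates 1 to 8. The 3 highest libraries were replicates 8, 2 and 7. Its RPKM was 83.2 ± 26.5 (SD, n = 8).

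VEGFB (ENSG00000173511, chromosome 11, 64002056 to 64006736, plus strand, 7 exons), another FLT1 ligand, had 24.4, 48.6, 23.5, 24.0, 23.8, 25.1, 33.2 and 64.2 CPM. Replicates 1, 3, 4, 5 and 6 lay within 23.5 to 25.1 CPM and the other 3 above. Its RPKM was 18.5 ± 8.39 (SD, n = 8), and its coefficient of variation of 45.4% was the highest of the 9 genes.

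VEGFC (ENSG00000150630, chromosome 4, 177604691 to 177713895, minus strand, 7 exons), the ligand of FLT4, had 20.7, 13.4, 24.3, 20.9, 22.7, 21.4, 27.0 and 17.3 CPM. It was lowest in replicates 2 and 8 but highest in replicate 7. Its RPKM was 9.27 ± 1.85 (SD, n = 8).

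VEGFA (ENSG00000112715, chromosome 6, 43737946 to 43754223, plus strand, 8 exons), the main ligand of KDR, had 13.3, 11.7, 14.9, 14.4, 18.1, 13.1, 17.7 and 9.37 CPM. Replicates 5 and 7 were highest and replicates 8 and 2 lowest. Its RPKM was 3.90 ± 0.809 (SD, n = 8), the lowest of the 4 ligands, and PGF lay 20.7-fold above it (log2 ratio 4.37 ± 0.66 for PGF over VEGFA). The remaining ligand of the family, VEGFD, listed under its older symbol FIGF, had between 0 and 8 counts per library. Its count of 0 in replicate 5 allows a level of up to 0.0777 CPM, taken as 3 read pairs of 2 counts each, for counting error only.

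**Figure D2:**
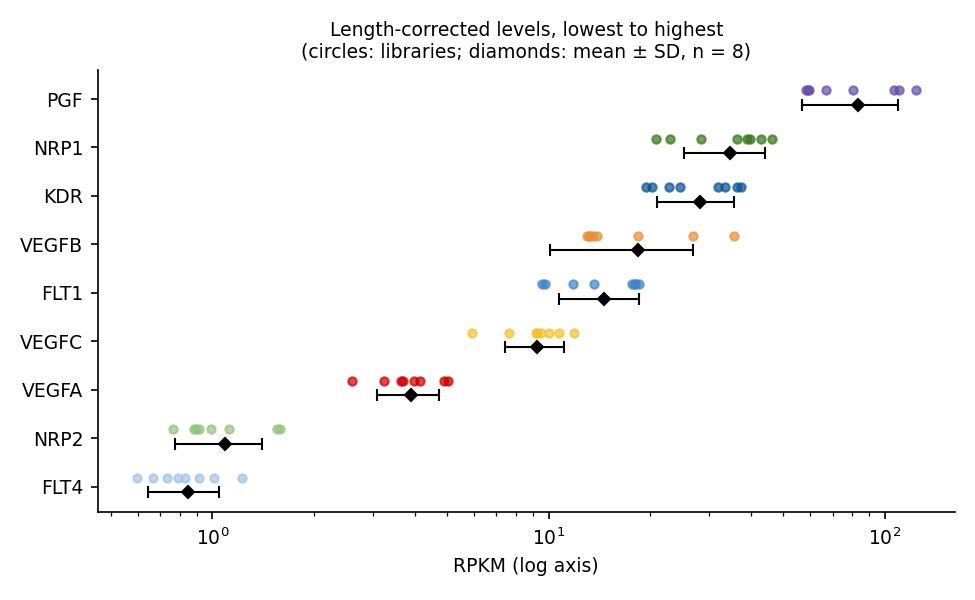
RPKM of the 9 genes (log axis) from lowest to highest, with circles for the 8 libraries and diamonds for the mean ± SD. PGF is highest at 83.2 RPKM, NRP2 and FLT4 are lowest at 1.09 and 0.846 RPKM, and the circles of VEGFB overlap those of KDR and of FLT1.

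The order by mean RPKM was PGF, NRP1, KDR, VEGFB, FLT1, VEGFC, VEGFA, NRP2 and FLT4. All 36 pairs were tested by the log2 ratio within each library, with 0.1 CPM added to each value before division by length, by flipping signs in an exact permutation test, two-sided and adjusted over the 36 pairs. Of these, 34 passed an adjusted p of 0.05, and 0.00781 is the smallest p that 8 libraries can give. The share over all gene pairs was not computed, so the count describes the order of these genes only. Neighbours that differed in 8 of 8 libraries, each with an exact p of 0.00781 and an adjusted p of 0.00879, were PGF over NRP1 (log2 ratio 1.26 ± 0.86, SD), NRP1 over KDR (0.28 ± 0.20), VEGFC over VEGFA (1.25 ± 0.22), VEGFA over NRP2 (1.85 ± 0.67) and NRP2 over FLT4 (0.34 ± 0.16). FLT1 exceeded VEGFC in 7 of 8 libraries, with a mean log2 ratio over all 8 of 0.63 ± 0.36 (exact permutation p = 0.0156, adjusted p = 0.0170). Without both replicates 2 and 8 this ratio was 0.67 with an adjusted p of 0.0643 in the same exact test. With fewer libraries the smallest p that this test can give is higher, so 0.0643 cannot be set against 0.0170.

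On RPKM the place of VEGFB was not resolved. NRP1 exceeded it in 6 of 8 libraries and passed narrowly, with a mean log2 ratio over all 8 of 0.95 ± 0.97 (exact permutation p = 0.0469, adjusted p = 0.0496). KDR exceeded VEGFB in 6 of 8 libraries, with a mean log2 ratio over all 8 of 0.67 ± 0.89 (exact permutation p = 0.0703, adjusted p = 0.0723). VEGFB exceeded FLT1 in only 3 of 8, with a mean log2 ratio over all 8 of 0.28 ± 0.95 (exact permutation p = 0.438, adjusted p = 0.438). Replicates 2 and 8 carried this spread. KDR over VEGFB was 0.84 without replicate 2 and 0.89 without replicate 8 (each with an adjusted exact permutation p of 0.0482). Without both, an omission chosen after seeing the data, KDR over VEGFB was 1.11 (adjusted exact permutation p = 0.0331). VEGFB over FLT1 was then -0.19 (adjusted exact permutation p = 0.344). The authors' CQN values are conditional quantile normalised log2 values, from a method meant to correct for length and GC content. On them, KDR exceeded VEGFB in 8 of 8 libraries by 1.21 ± 0.27 (exact permutation p = 0.00781, adjusted p = 0.00827). VEGFB lay below FLT1 in 8 of 8 libraries, by -0.14 ± 0.09 (exact permutation p = 0.00781, adjusted p = 0.00827). The length used also matters: with all exons of a gene merged, NRP1 lay below KDR (log2 ratio -0.63, adjusted exact permutation p = 0.0100), VEGFB exceeded FLT1 by 0.97 (adjusted p = 0.0100), PGF exceeded NRP1 by 0.55 (adjusted p = 0.179), FLT1 exceeded VEGFC by 0.03 (adjusted p = 0.860) and NRP2 over FLT4 was -0.12 (adjusted p = 0.0879).

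Across libraries the shares of KDR and FLT1 among the receptors varied less than their levels. KDR made up 64.6% ± 1.29 of the summed receptor RPKM (SD, n = 8; 62.7 to 66.4%), FLT1 33.3% ± 1.65 and FLT4 2.10% ± 0.991. From CQN values the share of KDR was 66.1% ± 4.40 and ranged from 60.4 to 71.0%. FLT4 had its highest shares, 4.02% and 3.28%, in replicates 2 and 8 and at most 1.88% elsewhere. NRP2 made up 6.47% and 6.92% of the neuropilin RPKM in the same libraries and at most 3.10% in the others.

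In the ligand group, PGF took 71.8% ± 3.08 of the summed RPKM (68.0 to 75.4%), VEGFB 15.7% ± 2.77, VEGFC 8.77% ± 3.03 and VEGFA 3.70% ± 1.31 (SD, n = 8). These shares depended on the length used: with merged exons they were 48.6% ± 3.44, 32.3% ± 5.37, 17.0% ± 5.70 and 2.08% ± 0.715, in the same order. VEGFC took 4.04% and 4.51% in replicates 2 and 8 and 8.43 to 12.3% in the other 6 libraries. VEGFA took 2.21% and 1.53% in those 2 libraries and 3.38 to 5.27% in the others. From CQN values VEGFC remained lowest in replicates 2 and 8, at 5.40% and 6.60% against at least 8.06%. VEGFA did not, with 3.602% in replicate 2 and 3.19% in replicate 6. The gap between replicates 2 and 8 and the rest was noticed in these same values and was not tested.

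**Figure D3:**
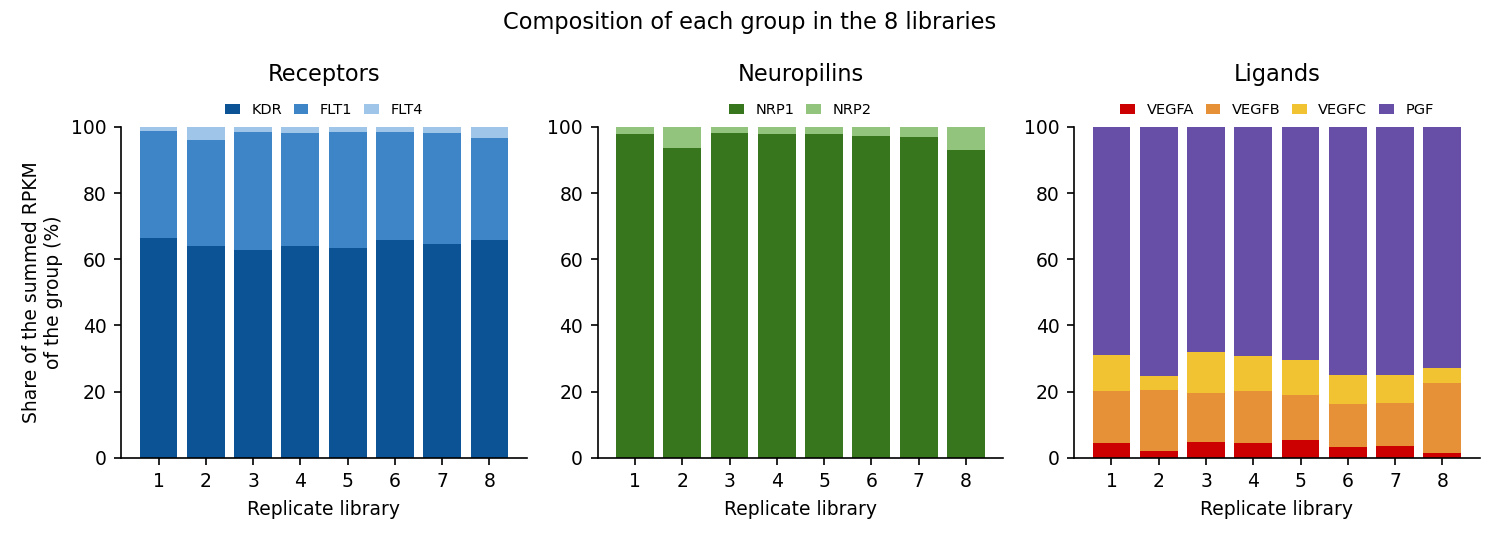
Share of each gene in the summed RPKM of its group (%, stacked bars) for replicate libraries 1 to 8. KDR stays between 62.7 and 66.4% of the receptors, and the NRP2 and FLT4 shares are largest and the VEGFA and VEGFC shares smallest in replicates 2 and 8.

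Variation between replicates was set against genes of like abundance with the goodness-of-fit statistic of edgeR, taken around its trended dispersion. By edgeR, 0 of the 9 members lay above the trend at an adjusted p under 0.05, against 4.66% of all 11980 tested genes. The unadjusted edgeR p was under 0.05 for 1 member, VEGFB, and for 13.1% of all genes. VEGFB had an edgeR adjusted p of 0.0814. Its gene-wise biological coefficient of variation, the square root of the edgeR dispersion, was 36.4% where the trend gave 23.9%. This measure is not the coefficient of variation of the CPM values given above. PGF had 29.2% (adjusted p = 0.525), and the other 7 members lay between 21.97% and 27.1%. With the DESeq2 dispersion trend in the same test, 4 members were called, FLT1 (adjusted p = 0.0372), NRP1 (0.0229), VEGFB (5.31e-05) and PGF (0.00660), against 23.5% of all genes.

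Each member was then related to the length slope of the libraries. Pearson's r of log2(CPM + 0.1) with the slope was computed for all 11980 detected genes, with an exact two-sided permutation over 40320 pairings and adjustment over all of them. At an adjusted p under 0.05, 6 of the 9 members were called, against 68.4% of all genes (31.6% positive, 36.8% negative), so the count of members is near the background. The slope is computed from the same libraries' expression values. In bulk RNA, fewer cells that express a gene and less RNA of it per cell cannot be told apart.

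The positive calls were KDR, FLT1 and NRP1, 3 long transcripts of 5833, 7123 and 5640 nt. KDR had r = 0.899 (exact p = 8.68e-04, adjusted p = 0.00329; rho = 0.857, exact p = 0.0107, adjusted p = 0.0356). Dropping replicates 2 and 8, the libraries farthest from the median slope, gave r = 0.834. FLT1 had r = 0.961 (exact p = 3.97e-04, adjusted p = 0.00225; rho = 0.833, exact p = 0.0154, adjusted p = 0.0443), and 0.919 without those 2. NRP1 had r = 0.981 (exact p = 3.97e-04, adjusted p = 0.00225; rho = 0.833, exact p = 0.0154, adjusted p = 0.0443), and 0.926 without them.

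The negative calls were PGF, VEGFB and NRP2. PGF, a short transcript of 1740 nt, had r = -0.928 (exact p = 0.00136, adjusted p = 0.00424; rho = -0.929, exact p = 0.00223, adjusted p = 0.0147), and -0.855 without replicates 2 and 8. VEGFB, of 1805 nt, had r = -0.980 (exact p = 0.00203, adjusted p = 0.00535; rho = -0.714, exact p = 0.0576, adjusted p = 0.102), and -0.942 without them. NRP2 is different in that its transcript is long (6644 nt). Its r was -0.774 (exact p = 0.0329, adjusted p = 0.0483; rho = -0.595, exact p = 0.132, adjusted p = 0.190), it turned to 0.215 without replicates 2 and 8, and leaving out any single library raised its adjusted p to between 0.0503 and 0.170. The relation of NRP2 therefore rests on those 2 libraries.

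VEGFA (r = 0.577, exact permutation p = 0.141, adjusted p = 0.176; rho = 0.310, exact p = 0.462), VEGFC (r = 0.569, exact p = 0.139, adjusted p = 0.174; rho = 0.310, exact p = 0.462) and FLT4 (r = -0.541, exact p = 0.169, adjusted p = 0.207; rho = -0.405, exact p = 0.327) did not pass. Without replicates 2 and 8 their r was -0.717, -0.823 and 0.546. For VEGFA the adjusted p was 0.0375 without replicate 7 (r = 0.792). When both replicates 2 and 8 were left out and the slope was refitted, 0 of the 9 members passed, as did 0% of the 12173 genes then tested. The refitted r was 0.820 for KDR, 0.907 for FLT1, 0.923 for NRP1, -0.935 for VEGFB and -0.845 for PGF.

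**Figure D4:**
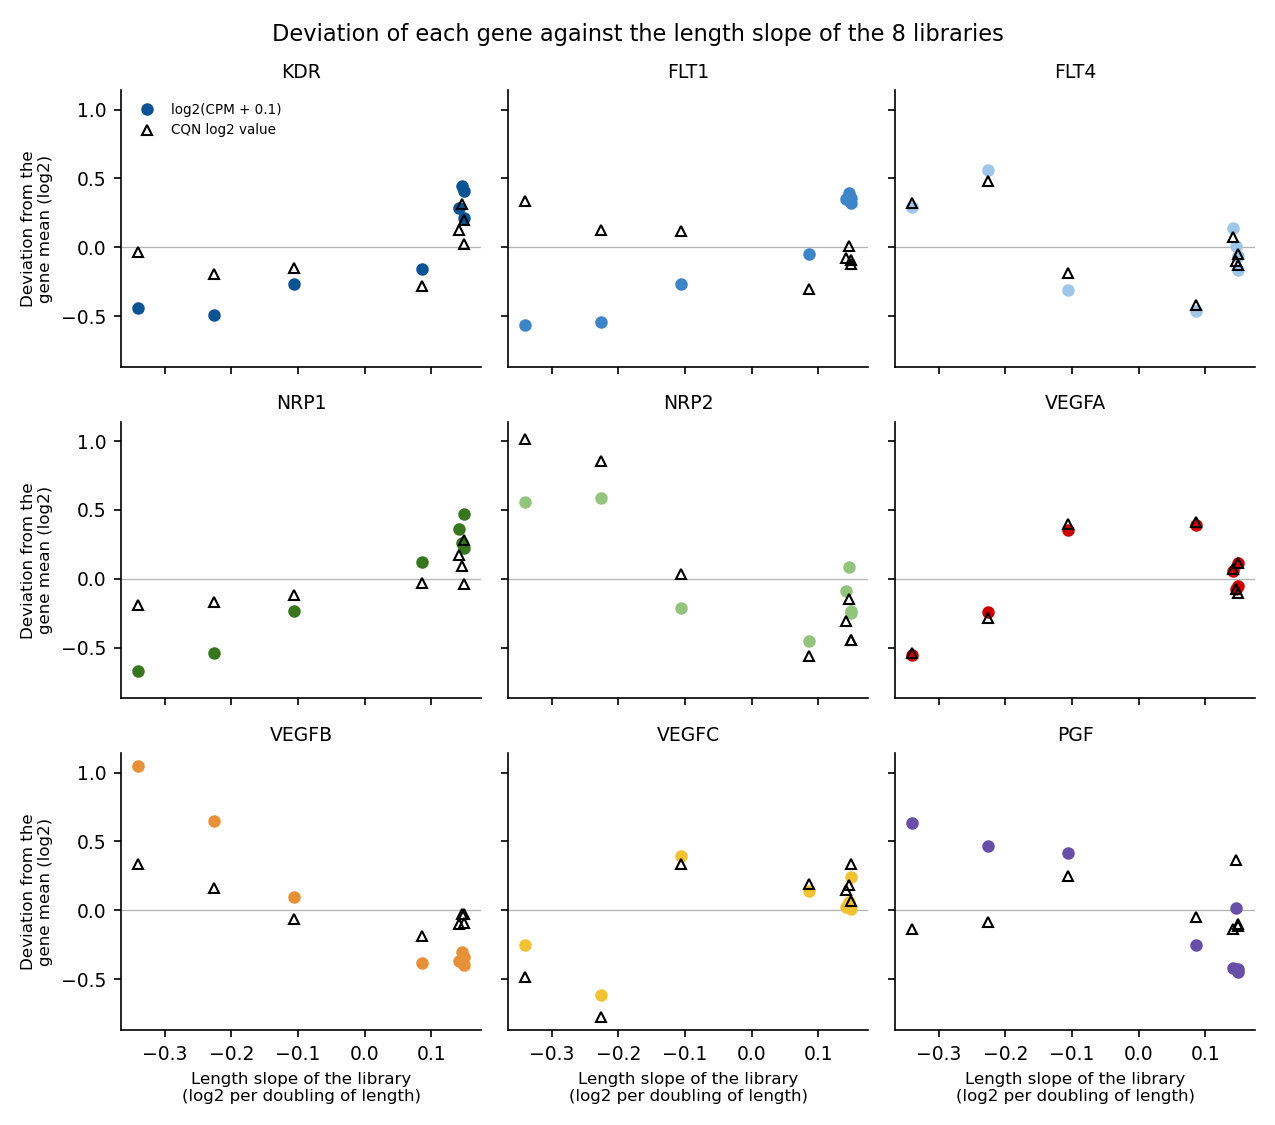
Deviation of each gene from its own mean (log2) against the length slope of the 8 libraries, as log2(CPM + 0.1) (filled circles) and as the authors' CQN value (open triangles). KDR, FLT1 and NRP1 climb with the slope on the CPM scale, FLT1 turns the other way on the CQN scale, and NRP2 stands high in the 2 libraries of lowest slope on both scales.

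The authors' CQN values changed this picture gene by gene, and 33.5% of all genes were called on them (15.1% positive, 18.5% negative). PGF did not pass (r = 0.135, exact permutation p = 0.764, adjusted p = 0.828; rho = 0.00, exact p = 1.00; r = -0.443 without replicates 2 and 8), and its CQN values ran only from 8.37 to 8.88. KDR did not pass (r = 0.505, exact permutation p = 0.202, adjusted p = 0.305; rho = 0.667, exact p = 0.0831; r = 0.597 without those 2). FLT1 reversed (r = -0.836, exact permutation p = 0.00496, adjusted p = 0.0230; rho = -0.714, exact p = 0.0576; r = -0.513 without those 2): its CQN value was highest, at 6.66, in replicate 8, where its CPM was lowest. NRP1 kept its direction (r = 0.809, exact permutation p = 0.0136, adjusted p = 0.0433; rho = 0.738, exact p = 0.0458; r = 0.667 without those 2), as did VEGFB (r = -0.846, exact permutation p = 0.0108, adjusted p = 0.0376; rho = -0.405, exact p = 0.327), although its r was 0.0321 without those 2.

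NRP2 was the member with the widest range on the CQN values. Its CQN values in replicates 1 to 8 were 2.29, 3.58, 2.29, 2.42, 2.17, 2.58, 2.76 and 3.74, and the SD of 0.61 was larger than the 0.38 of its log2 CPM. The relation to the slope was r = -0.940 (exact permutation p = 0.00315, adjusted p = 0.0178; rho = -0.738, exact p = 0.0458; r = -0.657 without replicates 2 and 8). VEGFC showed the opposite pattern, with CQN values of 4.66 and 4.95 in replicates 2 and 8 and 5.50 to 5.77 in the others. The same 2 libraries were highest for NRP2, at 3.57 and 3.66, and lowest for VEGFC, at 3.52 and 3.81, once log2(CPM + 0.1) was freed, library by library, of its trend with length and GC content, where the others held 2.30 to 2.80 and 4.48 to 4.75. These libraries also had the lowest length slopes, and the part of library quality in the NRP2 and VEGFC values was not tested.

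Pairs of members chosen by role were compared across the 8 libraries, with exact two-sided permutation and adjustment over the 8 pairs. The share of all gene pairs that would pass was not computed. On log2(CPM + 0.1), 68.4% of all genes were related to the length slope, so relations between genes on that scale are not particular to these pairs. KDR and FLT1 moved together on log2(CPM + 0.1) (r = 0.974, exact p = 5.46e-04, adjusted p = 0.00437; rho = 0.881, exact p = 0.00724, adjusted p = 0.0579). Dropping replicates 2 and 8 gave r = 0.955. With the length and GC trend removed r was 0.953 (exact permutation p = 0.00213, adjusted p = 0.0136; rho = 0.905, exact p = 0.00456, adjusted p = 0.0365; r = 0.990 without replicates 1 and 6). On the CQN values it was 0.00832 (exact permutation p = 0.986, adjusted p = 0.986; rho = -0.0476, exact p = 0.935; r = -0.610 without replicates 5 and 6). The CQN scale raised FLT1 but not KDR to the same extent in replicates 2, 7 and 8, so the relation depended on the scale.

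**Figure D5:**
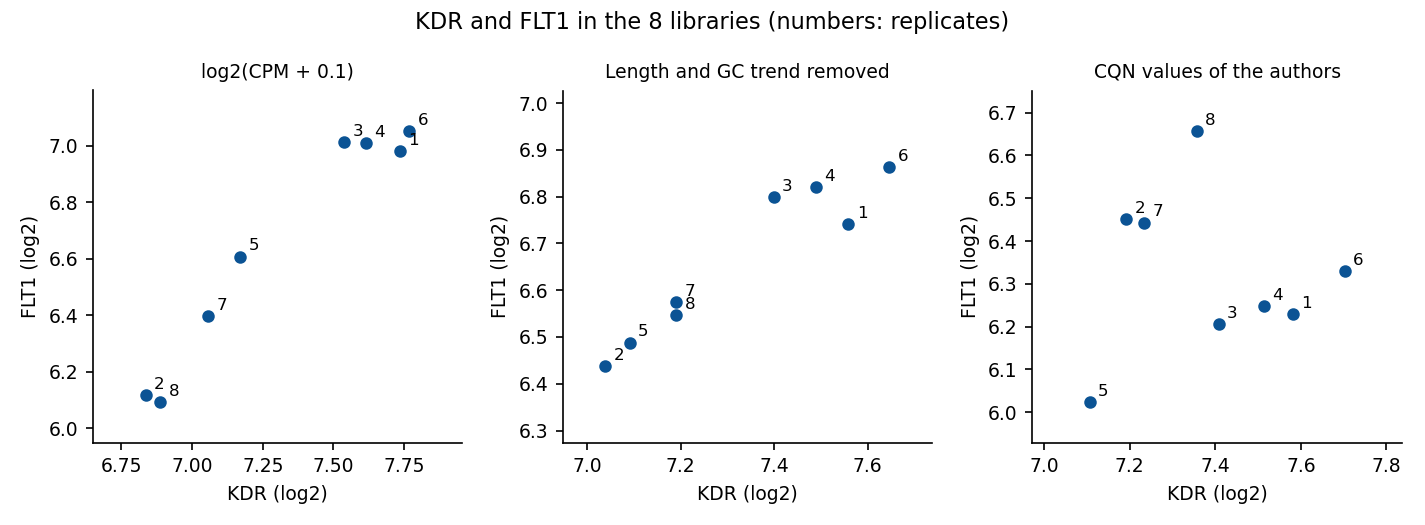
FLT1 against KDR (log2 scales) in the 8 libraries, numbered by replicate, on log2(CPM + 0.1), after removal of each library's length and GC trend, and on the authors' CQN values. The points line up in the first and second panels (r = 0.974 and 0.953), and on CQN values replicates 2, 7 and 8 lie above the others (r = 0.00832).

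KDR and NRP1, a receptor and its co-receptor, had r = 0.884 on log2(CPM + 0.1) (exact permutation p = 0.00342, adjusted p = 0.0137; rho = 0.762, exact p = 0.0368, adjusted p = 0.0980; 0.734 without replicates 2 and 8). It was 0.644 with the length and GC trend removed (exact permutation p = 0.0948, adjusted p = 0.152) and 0.473 on CQN values (exact permutation p = 0.236, adjusted p = 0.471). Leaving out replicate 4 gave r = 0.872 with an adjusted p of 0.0524 in the same exact test. FLT1 and its ligand PGF ran opposite ways on log2(CPM + 0.1) (r = -0.882, exact permutation p = 0.00977, adjusted p = 0.0195; rho = -0.690, exact p = 0.0694, adjusted p = 0.111; -0.698 without replicates 2 and 8). With the length and GC trend removed r was -0.0741 (exact permutation p = 0.828), and on CQN values it was 0.0923 (exact permutation p = 0.818). On log2(CPM + 0.1) it missed the threshold without replicate 2, 3, 4 or 8 (exact permutation, adjusted p up to 0.0683).

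FLT4 and its ligand VEGFC also ran opposite ways (r = -0.861, exact permutation p = 0.00538, adjusted p = 0.0144; rho = -0.762, exact p = 0.0368, adjusted p = 0.0980; -0.849 without replicates 2 and 5). On CQN values r was -0.857 (exact permutation p = 0.0111, adjusted p = 0.0444), but -0.0525 without replicates 2 and 8, and it was -0.689 with the length and GC trend removed (exact permutation p = 0.0476, adjusted p = 0.0951). On log2(CPM + 0.1) without both replicates 2 and 8 it was -0.419 (adjusted p = 0.550, exact permutation), so it rests on those libraries. It also missed the threshold without replicate 2 (r = -0.713, adjusted p = 0.136) or replicate 8 (r = -0.825, adjusted p = 0.0683) in the exact permutation test. VEGFA and VEGFB had r = -0.727 (exact permutation p = 0.0445, adjusted p = 0.0593; rho = -0.714, exact p = 0.0576; -0.310 without replicates 5 and 8), and -0.363 without replicate 8 alone (adjusted exact permutation p = 0.557). On CQN values r was -0.896 (exact permutation p = 0.00154, adjusted p = 0.0123; rho = -0.881, exact p = 0.00724; -0.711 without replicates 5 and 8). With the length and GC trend removed it was -0.877 (exact permutation p = 0.00340, adjusted p = 0.0136; rho = -0.714, exact p = 0.0576; -0.624 without replicates 5 and 8).

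The remaining pairs did not pass on log2(CPM + 0.1) with all 8 libraries. Without replicate 7, however, NRP1 with NRP2 (r = -0.833, adjusted p = 0.0429), VEGFA with VEGFB (r = -0.870, adjusted p = 0.0143) and VEGFA with PGF (r = -0.797, adjusted p = 0.0325) passed by exact permutation. NRP1 and NRP2 had r = -0.757 (exact permutation p = 0.0350, adjusted p = 0.0560; rho = -0.429, exact p = 0.299), which was 0.224 without replicates 2 and 8. VEGFA and PGF had r = -0.479 (exact permutation p = 0.230, adjusted p = 0.263; rho = -0.476, exact p = 0.243; -0.0122 without replicates 5 and 8). KDR and VEGFA had r = 0.233 (exact permutation p = 0.581, adjusted p = 0.581; rho = 0.167, exact p = 0.703), yet -0.982 without replicates 2 and 8. With the library scaling refitted on the other 6 libraries it passed (r = -0.981, adjusted exact permutation p = 0.0444). That omission was chosen after seeing the data, so this p cannot stand as a test of the pair. On the scale with the length and GC trend removed, r over all 8 libraries was 0.0106 (exact permutation p = 0.980), and 0.143 without replicates 1 and 6. Neither value leaves out replicates 2 and 8, so they cannot be set against the -0.982. Among the other 6 libraries on that scale, replicates 5 and 7 had the lowest KDR (7.09 and 7.19) and the highest VEGFA (4.20 and 4.19).

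Genes with the most similar pattern were sought on the CQN values among 11980 detected genes, by Pearson's r over the 8 libraries, which share their depth and composition, as a description without a test. PECAM1, the endothelial adhesion molecule, was most like VEGFB (r = 0.992), followed by TCF19 (0.988) and USP13 (0.987). VEGFC was most like SYNJ2 (0.993), PODXL (0.993), a sialomucin of the endothelial surface, and P2RY2 (0.986). NRP2 was most like ATP5O (0.994), CDK11A (0.993) and FAM149B1 (0.992), but 9.53% of all genes had an r over 0.9 with it, against 6.20% for VEGFB and 3.65% for VEGFC. For VEGFA the genes were TIMM44 (0.992), MTHFD2 (0.992) and AEN (0.989).

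KDR and PGF had few similar genes. KDR was most like CCND3 (0.952), LINC00115 (0.951) and TGFB1 (0.950), with 0.167% of genes over 0.9, and PGF most like GRASP (0.942), SMAD6 (0.930) and ANAPC2 (0.922), with 0.0334%. For FLT1 they were ZBTB46 (0.983), TEP1 (0.974) and GNRH1 (0.973), for FLT4 ZNF285 (0.978), KIAA1407 (0.973) and ANXA4 (0.965), and for NRP1 SACM1L (0.983), SCO2 (0.972) and ZFP36 (0.954). Of these 27 genes, 6 had the opposite sign on log2(CPM + 0.1): CCND3 (-0.718) and TGFB1 (-0.798) with KDR, ZBTB46 (-0.592) and GNRH1 (-0.594) with FLT1, SCO2 (-0.612) with NRP1 and USP13 (-0.919) with VEGFB.

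The rest of the pathway was described with 84 genes in 8 lists, of which 75 were detected. Of these, 7 lay above the variation trend (9.33%, against 4.66% of all genes), and 45 were related to the length slope (60.0%, against 68.4%), 28 positively and 17 negatively. On CQN values 22 of the 75 were related to the slope (29.3%, against 33.5% of all genes), and with the DESeq2 trend 25 lay above the trend (33.3%, against 23.5%). The median r with the slope was 0.380 over the 75 genes and -0.214 over all genes tested.

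All 10 genes of the receptor complex list were detected, with 6 positive and 1 negative in relation to the slope. These calls made up 70%, against 68.4% of all genes. Of the positive calls, PTPN11 (r = 0.962, adjusted exact permutation p = 0.0146) and CBL (r = 0.985, adjusted p = 0.00873) also passed on CQN values. PTPRB, PTPRJ, MYO6 and DAB2 did not, with r of -0.194, -0.445, -0.624 and -0.0889 there. CDH5, the endothelial cadherin that associates with KDR, had 160.0 ± 37.5 RPKM. GIPC1, an adaptor of the NRP1 tail, had 90.1 ± 26.4 RPKM and was the negative call (r = -0.984, adjusted exact permutation p = 0.00185), but on CQN values its r was 0.613 (adjusted p = 0.184). PTPN1, a phosphatase acting on KDR, had 56.0 ± 4.38 RPKM. CBL, a ubiquitin ligase for receptor kinases, was above the variation trend (edgeR adjusted p = 0.0284), between 50.03 and 162 CPM. Its level followed the slope (r = 0.999, adjusted exact permutation p = 0.00207).

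Among the signal transducers 31 of 34 genes were detected. Of these, 13 were positive and 12 negative in relation to the slope (80.6% called, against 68.4% of all genes). The highest were HSPB1, a small heat shock protein phosphorylated downstream of KDR, at 523 ± 305 RPKM, the GTPase RAC1 at 225 ± 21.96 and the adaptor SHC1 at 112 ± 6.06 (SD, n = 8). HSPB1 was the only gene of the list above the variation trend (edgeR adjusted p = 8.76e-04). Its level ran from 251 to 893 CPM with a median of 270.0. HSPB1 was negatively related to the slope (r = -0.978, adjusted exact permutation p = 0.00627), but on CQN values r was -0.334 (adjusted p = 0.528). SH2D2A, PRKCB and NOS3, the endothelial nitric oxide synthase, stayed under the detection limit, at 1.46, 0.0657 and 0.920 CPM on average.

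Oxygen sensing genes control VEGFA transcription, and 7 of 8 were detected. EPAS1, the endothelial hypoxia-inducible factor, had 294 ± 46.1 RPKM and HIF1A 50.6 ± 21.2 (SD, n = 8). HIF1A ranged from 65.2 to 269 CPM with a median of 243 and lay above the variation trend (edgeR adjusted p = 0.00262). HIF1A (r = 0.996, adjusted exact permutation p = 0.00247), EPAS1 (r = 0.952, adjusted p = 0.00565) and EGLN1 (r = 0.870, adjusted p = 0.00812) were positively related to the slope, and VHL (27.9 ± 5.76 RPKM, r = -0.976, adjusted p = 0.00381) negatively, by the same exact permutation test. On CQN values HIF1A, EPAS1 and VHL passed in the same directions (adjusted p = 0.0115, 0.0223 and 0.00873), whereas EGLN1 reversed (r = -0.926, adjusted p = 0.0241). HIF1AN, which was not called on log2(CPM + 0.1) (r = 0.721, adjusted p = 0.0527), passed on CQN values (r = -0.951, adjusted p = 0.0115). EGLN3, a hypoxia-induced hydroxylase, was not detected (0.521 ± 0.151 CPM).

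All 9 transcription factors listed for the receptor genes were detected. GATA2 (54.1 ± 9.45 RPKM), FLI1 (41.7 ± 4.31) and ETS1 (34.0 ± 12.2) were highest. ETS1 (edgeR adjusted p = 0.0355) and SOX18 (edgeR adjusted p = 5.69e-05) lay above the variation trend, with ranges of 69.6 to 247 and 10.8 to 64.8 CPM. ETS1 (r = 0.905, adjusted p = 0.0127) and ETS2 (r = 0.788, adjusted p = 0.0298) were positively and SOX18 (r = -0.783, adjusted p = 0.0364) negatively related to the slope by exact permutation. None of the 3 passed on CQN values (r = 0.755, 0.572 and -0.309, adjusted p = 0.0810, 0.241 and 0.560).

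Of the 10 genes listed as responsive to VEGF, 9 were detected. DUSP5, a phosphatase of ERK, had 60.0 ± 18.5 RPKM, the peptide ligand APLN 42.3 ± 8.41, and ESM1, a tip cell proteoglycan, 20.6 ± 2.49 (SD, n = 8). NR4A1, an immediate early nuclear receptor, lay above the variation trend (edgeR adjusted p = 0.00143), between 4.16 and 22.8 CPM. Only STC1 was related to the slope (r = 0.934, adjusted exact permutation p = 0.00907), and on CQN values it did not pass (r = 0.619, adjusted p = 0.192). EGR3 was not detected (0.483 ± 0.381 CPM).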

How the data were processed

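Polyadenylated RNA of 8 hCMEC/D3 replicates was sequenced from TruSeq RNA Sample Prep Kit v2 libraries, per the labels' protocols. The submitters' processing notes name CASAVA 1.9, TopHat2 2.0.6, HTSeq and hg19, without order or settings. The annotation and the use of strand are not given in the sources used here. The authors deposited raw counts per gene, whole and even numbers in all 186768 cells, and CQN values for 13962 genes. The deposited CQN values were made by conditional quantile normalisation before deposit, per the file headers, and their range fits a log2 scale. The headers name neither length nor GC content, so a correction for both is inferred from the method. Its settings are not given. The 16 value columns were assigned by title, which left 0 unassigned.

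CPM used TMM-scaled library sizes over all genes (edgeR 4.0.16, R 4.3.3). DESeq2 1.42.0 gave alternative size factors and an alternative dispersion trend. Genes with at least 1 CPM in all 8 libraries were called detected. RPKM used the canonical transcript of GENCODE 44 lifted to GRCh37. Symbols matched 19467 genes and RefSeq synonyms 1989, which gave a length to 11636 of the 11980 detected genes (97.1%). PECAM1 had none. Table starts count from 0 and are printed from 1. Ratios and relations used log2(CPM + 0.1). The trend on length and GC content removed from each library was quadratic in both, with their product. Promoter windows came from RefSeq (GRCh38.p14) by symbol.

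With 1 group, the quasi-likelihood comparison of groups did not apply. The goodness-of-fit test used an intercept-only edgeR model with the trended dispersion, adjusted by Benjamini-Hochberg over 11980 genes. Sign-flip tests ran over 256 patterns and relations over 40320 pairings, all two-sided and exact. The goodness-of-fit, sign-flip and slope tests were each checked on simulated data. For the length slope relation, with 11980 genes drawn, 100% of 7986 genes made to follow the slope were called, but 29.5% of 200 when few followed it.

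The members and lists were chosen with earlier results of these data known. The text names all members, the highest gene of each marker list, the 3 highest genes of each list by RPKM, the undetected genes, those above the trend and those related to the slope where a list held 5 or fewer, and the 3 genes most like each member. Some further genes are named for their CQN values. Depth was 69388544 to 90205244 counts per library, and the lowest count of a member was 268.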

Additional observations from a re-analysis of the deposited data

How the results depend on the processing

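No paired analysis was possible because all samples belong to 1 group. The 9 members were detected under every threshold, scaling and omission tried, except that RPKM of at least 1 in every library left 7, without NRP2 and FLT4. The number of pairs called was 34, against 36 on CQN values, 30 with merged exons and 33 on CPM without length, between 33 and 35 when single libraries were left out, and 34 without both replicates 2 and 8, an omission chosen after seeing the data. No member lay above the variation trend under the other settings, including each library left out (0 to 0), but 4 did with the DESeq2 dispersion trend, and pathway genes above the trend went from 7 to 25 with it. Members related to the length slope numbered 5 to 6 with single libraries left out and 0 without both replicates 2 and 8. Relations between members called were 4, against 2 on CQN values, 2 with the length and GC trend removed, 2 to 7 with single libraries left out (2 without replicate 2, 4 or 8, and 7 without replicate 7) and 2 without both replicates 2 and 8. Pathway genes related to the slope went from 45 to 22 on CQN values. No share over all gene pairs was computed to set beside the counts of pairs and relations called. The causes were not tested.

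Directions that reversed were as follows. On CPM without length, PGF over NRP1 was -0.44 and VEGFB over FLT1 -1.70. With merged exons, NRP1 over KDR was -0.63 and NRP2 over FLT4 -0.12. On CQN values, VEGFB over FLT1 was -0.14, and r was -0.836 for FLT1 with the slope, 0.135 for PGF with the slope, -0.294 for KDR with VEGFA, 0.313 for VEGFA with PGF and 0.0923 for FLT1 with PGF. With the length and GC trend removed, VEGFA with PGF was 0.105. Leaving out 1 library turned KDR with VEGFA (-0.175 to 0.438). Without both replicates 2 and 8, VEGFB over FLT1 was -0.19, r with the slope was 0.516 for FLT4, 0.181 for NRP2, -0.732 for VEGFA and -0.841 for VEGFC, and r was -0.981 for KDR with VEGFA, 0.237 for NRP1 with NRP2, 0.460 for VEGFA with VEGFB and 0.463 for VEGFA with PGF.

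With the exons of each gene merged, mean RPKM moved by more than 1 SD for 6 members, among them VEGFA (0.975) and PGF (24.9). Mean CPM moved by less than 1 SD under every scaling and omission. Gene counts cannot resolve isoforms, which limits RPKM, and FLT4 rests on the fewest counts.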

Other observations

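Neuropilins also serve class 3 semaphorins, which signal through plexins. Of 7 such semaphorins, 5 were detected, with SEMA3F, the NRP2 ligand, highest at 48.1 ± 6.05 RPKM (SD, n = 8), followed by SEMA3C (12.02 ± 4.50) and SEMA3A, the NRP1 ligand (4.59 ± 1.37). Per length SEMA3F thus stood far above NRP2 (1.09 ± 0.316 RPKM). SEMA3C lay above the variation trend (edgeR adjusted p = 0.0359), between 25.9 and 78.7 CPM. SEMA3A (r = 0.906, adjusted p = 0.0101) and SEMA3C (r = 0.990, adjusted p = 0.00285) were positively and SEMA3B (r = -0.923, adjusted p = 0.00605) and SEMA3F (r = -0.811, adjusted p = 0.0290) negatively related to the length slope by exact permutation, adjusted over all 11980 genes. On CQN values only SEMA3C passed among these 4 (r = 0.971, adjusted p = 0.0132), and r was 0.226 for SEMA3A (adjusted p = 0.682), -0.789 for SEMA3B (0.0633) and 0.608 for SEMA3F (0.195). SEMA3D averaged 1.54 CPM and SEMA3E 0.218 CPM, and neither reached the detection limit in every library.

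Of 5 plexins, 4 were detected. PLXND1 had 67.4 ± 8.05 RPKM, PLXNA2 33.6 ± 7.02 and PLXNA1 12.2 ± 2.34 (SD, n = 8), and PLXNA4 was not detected (0.904 ± 0.359 CPM). None of the detected plexins lay above the variation trend, and PLXNA1 was the only one related to the length slope (r = 0.878, adjusted exact permutation p = 0.0228; on CQN values r = 0.763, adjusted p = 0.0838). On CQN values PLXNA3 passed instead (r = 0.797, adjusted p = 0.0462).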
